A study of Mus musculus with 12 samples.

Results

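The 7 genes described here belong to the Lin28–let-7 axis: *Lin28a*, *Lin28b*, *Trim71*, *Hmga2*, *Igf2bp1*, *Igf2bp2* and *Igf2bp3*. They were taken from the tables by symbol, and they are 7 of the 23412 genes counted. RNA-Seq had been carried out on v6.5 mESCs (mouse embryonic stem cells of a male line, kept on gelatin with serum and leukemia inhibitory factor) to ask how loss of the nucleosome-binding proteins HMGN1 and HMGN2 alters transcription. The 12 libraries fell into 4 genotypes with 3 replicates each: WT mESCs, mESCs without *Hmgn1* (*Hmgn1*-/-), mESCs without *Hmgn2* (*Hmgn2*-/-) and mESCs without both, called double-knockout mESCs from here on. *Hmgn1*-/- mESCs carry a homozygous deletion of a single base and *Hmgn2*-/- mESCs a homozygous insertion of a single base, both made with CRISPR–Cas9. For the double knockout, the *Hmgn2*-/- line was edited again, this time in *Hmgn1*. Each knockout line is 1 clone grown from a single edited cell, so that genotype and clone cannot be told apart, and *p*-values measure only the spread between the libraries of these lines. WT libraries held 17614490 to 31448468 counts each. *Hmgn1*-/- libraries held 21059862 to 25953244, *Hmgn2*-/- libraries 17337908 to 26486535 and double-knockout libraries 22151507 to 31005479.

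The LIN28 proteins bind precursors of the microRNA let-7 and block their maturation, and mature let-7 in turn represses the *Lin28* mRNAs. Cells of the early embryo have much LIN28 and little mature let-7, and the balance turns over as cells differentiate. Further let-7 targets include *Hmga2*, which encodes an architectural chromatin protein that binds AT-rich DNA, the *Igf2bp* genes, which encode RNA-binding proteins first found on the mRNA of insulin-like growth factor 2, and *Trim71*, the mouse relative of the worm gene *lin-41*, whose product represses mRNAs and is itself held down by let-7. These genes are called oncofetal because most of them are active in the embryo, largely silent in adult tissues and often active again in tumors. mESCs stand near the start of this program.

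The sequences that join these genes are the let-7 seed and its match in their 3′ UTRs. The mature microRNAs are shown because their seeds, apart from that of let-7j, define the sites searched. They are given from RefSeq on GRCm38, with the seed (bases 2 to 8) in capitals, and miR-125 is included as the second microRNA family known to act on *Lin28* mRNAs.
mmu-let-7a-5p: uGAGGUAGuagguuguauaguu
mmu-let-7g-5p: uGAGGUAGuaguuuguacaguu
mmu-let-7i-5p: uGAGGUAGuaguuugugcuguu
mmu-miR-98-5p: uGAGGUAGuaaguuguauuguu
mmu-let-7j: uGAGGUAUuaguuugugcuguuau
mmu-miR-125a-5p: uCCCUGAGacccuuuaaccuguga
mmu-miR-125b-5p: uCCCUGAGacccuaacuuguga
Of 13 microRNAs examined, 10 shared the seed GAGGUAG and 2, those of the miR-125 family, shared CCCUGAG. The seed of let-7j was GAGGUAU. The sequence of let-7a is that of the locus *Mirlet7a-1*, on the minus strand at chr13:48538239-48538260, and other loci encode let-7a as well. Mature microRNAs are not captured by a poly-A library, so that let-7 itself was not measured here.

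All 7 members carried at least 1 match to the let-7 seed, the letters CTACCTC, in the 3′ UTR of their principal GENCODE transcript, where 8.18% of 20758 genes had such a match. *Hmga2* had 4 matches in 2977 bases, *Lin28b* had 4 in 4445 bases, *Igf2bp1* had 4 in 6337 bases and *Trim71* had 4 in 5512 bases. As many as 4 matches were found in 0.053% of genes. *Lin28a* had 2 matches in 2775 bases, which 0.963% of genes reached, while *Igf2bp2* and *Igf2bp3* each had 1, in 1784 and 2119 bases. The UTRs of the members were longer than the median of 847 bases over all genes, and a longer UTR holds more matches to any 7 letters. The letters CTCAGGG, the match to the miR-125 seed, occurred 1 time each in *Lin28a*, *Lin28b*, *Igf2bp3* and *Trim71*, and in 12.2% of genes. A match is a stretch of letters and was not tested as a site of repression.

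For the members whose levels differed most between genotypes, let-7 matches are printed with their surroundings. Each line holds 30 bases from the minus strand of GRCm38, with the match in capitals. *Hmga2*, known as a gene with several let-7 sites, is given with all 4. *Lin28b* is given with 1 of its 4 matches, the only match there followed by an A.
Hmga2, match 1, chr10:120364222-120364251: ggggcgccgacattcaatttCTACCTCagc
Hmga2, match 2, chr10:120362987-120363016: caataatccccactcctcaataCTACCTCt
Hmga2, match 3, chr10:120362549-120362578: ggacttcctgatttgcaaggaaCTACCTCc
Hmga2, match 4, chr10:120361691-120361720: gttgtacaatcaaaacacactaCTACCTCt
Igf2bp2, chr16:22059473-22059502: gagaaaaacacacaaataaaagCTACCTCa
Igf2bp3, chr6:49086787-49086816: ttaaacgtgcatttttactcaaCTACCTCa
Lin28b, match 1, chr10:45381022-45381051: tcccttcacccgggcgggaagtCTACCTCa

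The edited genes were examined first, since they check the labels. Levels are given in CPM, scaled with the TMM factors of edgeR. The level of *Hmgn1* was 600 to 663 CPM in WT libraries, 138 to 142 in *Hmgn1*-/- libraries, 545 to 640 in *Hmgn2*-/- libraries and 19.9 to 21.5 in double-knockout libraries. That of *Hmgn2* was 120 to 137 CPM in WT libraries, 105 to 113 in *Hmgn1*-/- libraries, 50.7 to 54.6 in *Hmgn2*-/- libraries and 50.5 to 54.2 in double-knockout libraries. Every library thus had less RNA of the gene its label says was edited than every library in which that gene was intact. *Hmgn1* RNA was lower in double-knockout than in *Hmgn1*-/- mESCs, with a log2 FC of −2.73 (adjusted *p* = 7.83e-13, edgeR's quasi-likelihood test). Its departure from additivity, described below, was −2.63 (adjusted *p* = 4.25e-10, same edgeR test), and the cause was not tested. mRNA with a shifted reading frame can still be counted, so that a remaining count is not a measure of protein.

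*Hmgn2*-/- replicate 3 stood apart from its group. It was the shallowest of the 12 libraries, with 17337908 counts, and had the lowest TMM factor, 0.970. Its mean chi-square per gene was 40.1 against replicate 1 and 22.6 against replicate 2, while it was 3.60 to 13.1 for every other pair of replicates. No pair of replicates agreed within sampling noise, so all 12 libraries were kept as separate replicates. Tests of the members in *Hmgn2*-/- mESCs against WT are therefore given with all libraries and again without this one, while the lists and the genes most like each member are given with all libraries only.

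In WT mESCs the members spanned a wide range of abundance. Ranked by mean CPM among the 23412 genes, *Igf2bp1* was at rank 212, *Lin28a* at rank 230, *Trim71* at rank 886, *Igf2bp2* at rank 2471, *Igf2bp3* at rank 2479, *Lin28b* at rank 4891 and *Hmga2* at rank 6296. Longer transcripts collect more reads, so levels of different genes were compared per kilobase of exon. On this scale *Lin28a* was the most abundant member in WT mESCs, with a level of 145 ± 6.85 CPM per kilobase (SD, n = 3). *Igf2bp1* followed with a level of 62.7 ± 2.75 and *Trim71* with 23.6 ± 5.59 CPM per kilobase (SD, n = 3 each). *Igf2bp2* had a level of 12.4 ± 1.32 and *Igf2bp3* 11.2 ± 0.180 CPM per kilobase (SD, n = 3 each). *Lin28b* had 4.51 ± 0.302 and *Hmga2* 3.97 ± 0.879 CPM per kilobase (SD, n = 3 each), and only this pair of neighbours in the order overlapped between WT libraries. The order of *Igf2bp2* and *Igf2bp3* depended on the length used: per kilobase of the longest transcript, *Igf2bp3* had a level of 21.1 and *Igf2bp2* 18.6, and *Trim71*, with 23.6, overlapped *Igf2bp3*.

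The knockouts had the same leading members and a different order lower down. In *Hmgn1*-/- mESCs the levels per kilobase were 7.75 for *Igf2bp3*, 6.43 for *Igf2bp2*, 6.29 for *Lin28b* and 0.930 for *Hmga2*, and the libraries of *Igf2bp2* and *Lin28b* overlapped. In *Hmgn2*-/- mESCs they were 8.27 for *Igf2bp3*, 6.55 for *Lin28b*, 5.42 for *Igf2bp2* and 1.096 for *Hmga2*, and again *Lin28b* and *Igf2bp2* overlapped. In double-knockout mESCs they were 8.06 for *Igf2bp3*, 6.27 for *Lin28b*, 5.38 for *Igf2bp2* and 1.17 for *Hmga2*, with no overlap between neighbours. *Lin28a*, *Igf2bp1* and *Trim71* held the first 3 places in every genotype. In WT mESCs *Igf2bp2* stood above *Lin28b* by this measure, and in *Hmgn2*-/- and double-knockout mESCs the means stood in the opposite order. Per kilobase of the longest transcript this held for *Hmgn1*-/- mESCs as well, where *Lin28b* had 10.6 and *Igf2bp2* 9.61.

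**Figure D1:**
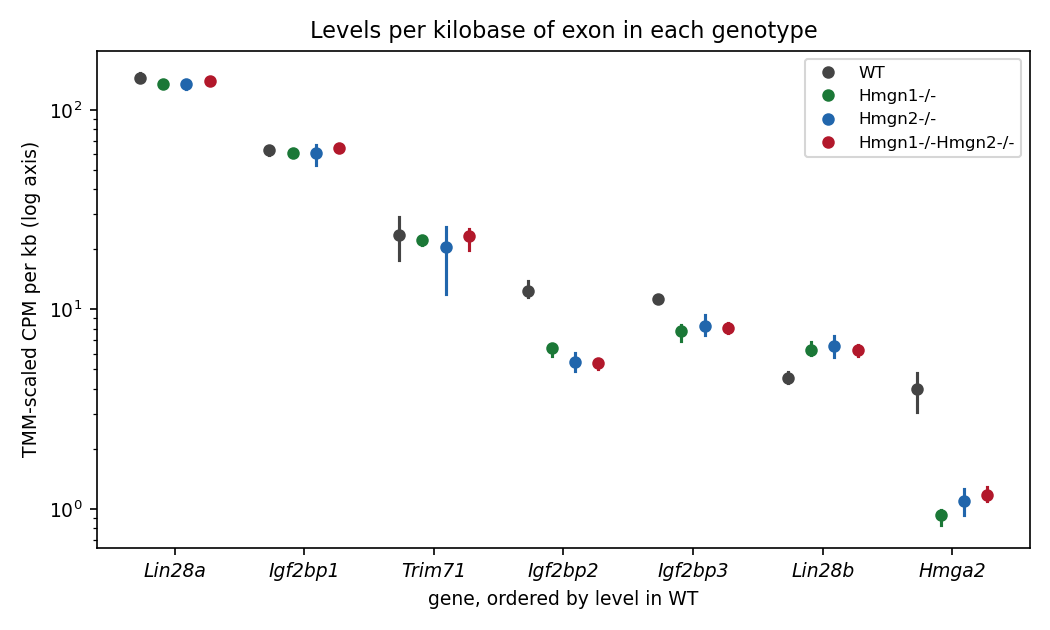
Levels of the 7 members in TMM-scaled CPM per kilobase of exon, on a log axis, with genes ordered by their level in WT mESCs. Points are means of 3 libraries and bars run from the lowest to the highest library; *Hmga2* lies at 3.97 in WT mESCs and at 0.930 to 1.17 in the knockouts, while *Lin28a* stays at 135 to 145.

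Each knockout was then compared with WT mESCs, to ask which of the members differ when HMGN1, HMGN2 or both are lost. Every comparison used edgeR's quasi-likelihood test across all genes, and a gene was called a DEG at a Benjamini-Hochberg adjusted *p* under 0.01 together with a log2 FC of at least 1 in size. All 7 members passed the filter on low counts in every comparison. In *Hmgn1*-/- mESCs 1 of 7 members was a DEG, *Hmga2*, against 5.98% of 13917 genes. The *Hmgn2*-/- mESCs had 2 of 7, *Hmga2* and *Igf2bp2*, against 5.15% of 14047 genes. In double-knockout mESCs the same 2 of 7 members were DEGs, against 6.3% of 14128 genes. Leaving out *Hmgn2*-/- replicate 3 gave the same 2 members in *Hmgn2*-/- mESCs. All of these calls were decreases, and so were 707 of 832 DEGs in *Hmgn1*-/-, 615 of 724 in *Hmgn2*-/- and 706 of 890 in double-knockout mESCs.

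Without the fold limit, 4 members had an adjusted *p* under 0.01 by edgeR's quasi-likelihood test in each knockout: *Hmga2*, *Igf2bp2*, *Igf2bp3* and *Lin28b*. The share of all genes that did so was 17.3% in *Hmgn1*-/-, 9.97% in *Hmgn2*-/- and 18% in double-knockout mESCs. *Lin28a*, *Igf2bp1* and *Trim71* reached neither limit in any knockout. The comparisons share the WT libraries, so that 1 set of WT values enters all 3. With members this few and chosen with results known, these counts describe the members and are not evidence about the group as a whole.

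**Figure D2:**
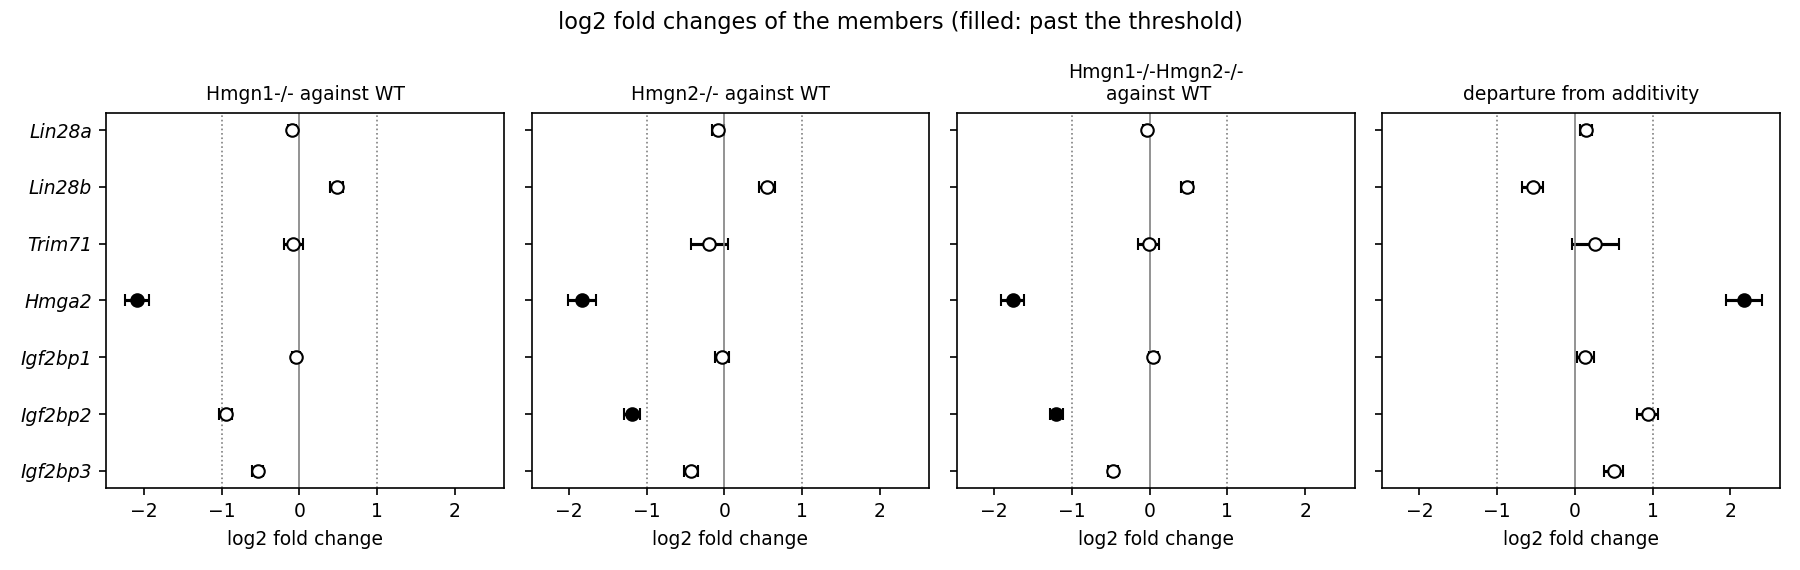
Log2 FC of the 7 members in each knockout against WT mESCs and, in the last panel, the departure from additivity; bars are standard errors (SE), dotted lines mark the fold limit and filled points are past the threshold. *Hmga2* is filled in every panel, and *Igf2bp2* only in *Hmgn2*-/- and double-knockout mESCs against WT.

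*Lin28a* encodes the LIN28 protein that mESCs mainly use, a cold-shock and zinc-knuckle protein that recruits a uridyl transferase to the let-7 precursor in the cytoplasm. The gene lies on the minus strand at chr4:134003330-134019196, near the edited gene *Hmgn2* at chr4:133964739-133967991. No other member lies as close to an edited gene, and whether the edit bears on *Lin28a* was not tested. *Lin28a* had 560, 609 and 564 CPM in the WT libraries, in the order of their replicate numbers. It had 540, 541 and 542 CPM in *Hmgn1*-/-, 562, 549 and 511 in *Hmgn2*-/- and 571, 543 and 565 in double-knockout mESCs. The *Hmgn1*-/- libraries lay just below the WT libraries, while the other knockouts overlapped them. The log2 FC against WT was −0.09 in *Hmgn1*-/- (SE 0.0512), −0.09 in *Hmgn2*-/- (SE 0.0749) and −0.04 in double-knockout mESCs (SE 0.0522). The adjusted *p* was 0.220, 0.496 and 0.615 by edgeR's quasi-likelihood test. Without *Hmgn2*-/- replicate 3, *Lin28a* had a log2 FC of −0.05 in *Hmgn2*-/- mESCs (adjusted *p* = 0.604, same edgeR test). A miss of the threshold does not show that levels are equal.

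*Lin28b*, its paralog, binds let-7 precursors as well and is found partly in the nucleus. It lies on the minus strand at chr10:45376617-45486314. It had 44.0, 39.8 and 38.9 CPM in WT mESCs and 55.3, 62.1 and 53.6 in *Hmgn1*-/- mESCs. *Hmgn2*-/- mESCs had 67.0, 58.6 and 52.5 CPM, and double-knockout mESCs had 60.0, 57.8 and 52.6. Every knockout library lay above every WT library. The group means were 139%, 145% and 139% of the WT mean of 40.9 ± 2.74 CPM (SD, n = 3). Its log2 FC was 0.48, 0.55 and 0.48 in *Hmgn1*-/-, *Hmgn2*-/- and double-knockout mESCs (SE 0.0787, 0.104 and 0.0774), with an adjusted *p* of 0.000434, 0.00387 and 0.000401 by edgeR's quasi-likelihood test. *Lin28b* was therefore past the adjusted *p* limit and not past the fold limit, and it was the only member past that limit with higher levels in the knockouts. For *Hmgn2*-/- mESCs the adjusted *p* depended on single libraries: by the same edgeR test it was 0.0259 without WT replicate 2, 0.0308 without WT replicate 3 and 0.0185 without *Hmgn2*-/- replicate 2. Without *Hmgn2*-/- replicate 3 the log2 FC was 0.63 (adjusted *p* = 0.000333, edgeR's quasi-likelihood test).

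*Trim71* encodes an RNA-binding ubiquitin ligase that represses mRNAs in stem cells and lies on the minus strand at chr9:114511268-114564369. In GENCODE, whose 3′ UTR was searched, the gene reaches down to 114507133, and let-7 matches 3 and 4 lie outside the span given. *Trim71* had 166, 270 and 225 CPM in WT mESCs and 211, 216 and 195 in *Hmgn1*-/- mESCs. In *Hmgn2*-/- mESCs it had 243, 218 and 111 CPM, and in double-knockout mESCs 236, 228 and 186. The value of 111 belonged to *Hmgn2*-/- replicate 3 and was the lowest of the 12, while the spread among WT libraries alone, 220 ± 52.2 CPM (SD, n = 3), covered the means of the other groups. The log2 FC was −0.08 in *Hmgn1*-/- (SE 0.121), −0.19 in *Hmgn2*-/- (SE 0.243) and −0.01 in double-knockout mESCs (SE 0.132). The adjusted *p* was 0.688, 0.658 and 0.955 by edgeR's quasi-likelihood test. Without *Hmgn2*-/- replicate 3 the log2 FC in *Hmgn2*-/- mESCs was 0.08 (adjusted *p* = 0.728, edgeR's quasi-likelihood test). *Trim71* also turned on the WT libraries: without WT replicate 1 its log2 FC in *Hmgn1*-/- mESCs was −0.25 (adjusted *p* = 0.00755), and without WT replicate 2 it was 0.09 (adjusted *p* = 0.563, edgeR's quasi-likelihood test for both).

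*Hmga2* encodes a chromatin protein of the HMGA class, distinct from the HMGN class to which the edited genes belong, and lies on the minus strand at chr10:120361268-120476469. It had 20.6, 27.7 and 32.4 CPM in the WT libraries. In *Hmgn1*-/- mESCs it had 5.60, 6.69 and 6.60 CPM, in *Hmgn2*-/- mESCs 7.45, 8.52 and 6.30, and in double-knockout mESCs 7.42, 8.68 and 7.67. The highest knockout library lay far below the lowest WT library, and *Hmgn2*-/- libraries overlapped those of each other knockout, while all *Hmgn1*-/- libraries lay below all double-knockout libraries. Behind these values stood 490 to 933 counts per WT library and 106 to 232 per knockout library. The group means were 26.9 ± 5.95 CPM in WT mESCs, 6.30 ± 0.604 in *Hmgn1*-/-, 7.42 ± 1.11 in *Hmgn2*-/- and 7.92 ± 0.666 in double-knockout mESCs (SD, n = 3 each), so that the knockouts had 23.4%, 27.6% and 29.5% of the WT level. *Hmga2* fell by 2.09 on the log2 scale in *Hmgn1*-/- mESCs (SE 0.156, adjusted *p* = 4.59e-07, edgeR's quasi-likelihood test). In *Hmgn2*-/- mESCs it fell by 1.83 (SE 0.175) and in double-knockout mESCs it fell by 1.76 (SE 0.149), with an adjusted *p* of 5e-05 and 1.38e-06 by the same edgeR test. Without *Hmgn2*-/- replicate 3 it fell by 1.74 in *Hmgn2*-/- mESCs (adjusted *p* = 3.41e-05, same edgeR test). In bulk RNA, fewer cells with *Hmga2* and less *Hmga2* RNA per cell cannot be told apart.

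The 3 *Igf2bp* genes encode closely related proteins with RNA-recognition and KH domains that guard, transport or control the translation of bound mRNAs. *Igf2bp2* and *Igf2bp3* were lower in all 9 knockout libraries than in every WT library, and *Igf2bp1* was not. *Igf2bp1*, on the minus strand at chr11:95957163-96005944, was the most abundant in every genotype. It had 577 to 625 CPM in WT mESCs, 560 to 614 in *Hmgn1*-/-, 512 to 642 in *Hmgn2*-/- and 594 to 656 in double-knockout mESCs, with the groups overlapping. The log2 FC was −0.04, −0.04 and 0.05 in the order of the knockouts given (SEs 0.0547, 0.0911 and 0.0551), and the adjusted *p* was 0.639, 0.843 and 0.562 by edgeR's quasi-likelihood test. The lowest of the 12 values, 512 CPM, was that of *Hmgn2*-/- replicate 3, and without it the log2 FC in *Hmgn2*-/- mESCs was 0.05 (adjusted *p* = 0.561, edgeR's quasi-likelihood test).

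*Igf2bp2*, on the minus strand at chr16:22059009-22163299, is the member of the family best known for its part in metabolism and insulin secretion and shares chromosome 16 with *Hmgn1*, at chr16:96121588-96127725. It had 103, 87.6 and 85.1 CPM in WT mESCs. In *Hmgn1*-/- mESCs it had 49.7, 49.9 and 43.3 CPM, in *Hmgn2*-/- mESCs 44.6, 39.3 and 36.5, and in double-knockout mESCs 41.6, 40.9 and 37.1. All 9 knockout libraries lay below all WT libraries, by a margin wider than the spread within any group. The means were 91.9 ± 9.75 CPM in WT mESCs, 47.6 ± 3.77 in *Hmgn1*-/-, 40.1 ± 4.09 in *Hmgn2*-/- and 39.9 ± 2.44 in double-knockout mESCs (SD, n = 3 each). *Igf2bp2* fell by 1.19 on the log2 scale in *Hmgn2*-/- mESCs (SE 0.105) and fell by 1.20 in double-knockout mESCs (SE 0.0831), with an adjusted *p* of 3.33e-05 and 1.9e-07 by edgeR's quasi-likelihood test. In *Hmgn1*-/- mESCs the log2 FC was −0.95 (SE 0.0846, adjusted *p* = 2.61e-06, same edgeR test), past the adjusted *p* limit and just inside the fold limit. Without WT replicate 3 it was −1.003 (adjusted *p* = 1.45e-06, same edgeR test) and passed both limits. When *Hmgn2*-/- replicate 3 was left out it fell by 1.13 in *Hmgn2*-/- mESCs (adjusted *p* = 1.06e-05, same edgeR test).

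*Igf2bp3*, on the minus strand at chr6:49085218-49215469, is the member most often found again in tumors. It had 93.4, 91.1 and 90.6 CPM in WT mESCs and 68.1, 64.7 and 56.8 in *Hmgn1*-/- mESCs. *Hmgn2*-/- mESCs had 76.2, 65.6 and 60.7 CPM, and double-knockout mESCs had 69.6, 65.9 and 61.9. Every knockout library lay below every WT library. Its log2 FC was −0.53, −0.43 and −0.47 in *Hmgn1*-/-, *Hmgn2*-/- and double-knockout mESCs (SE 0.0705, 0.0922 and 0.0632), with an adjusted *p* of 8.04e-05, 0.0075 and 8.13e-05 by edgeR's quasi-likelihood test. *Igf2bp3* was thus past the adjusted *p* limit and not past the fold limit. For *Hmgn2*-/- mESCs the adjusted *p* of the same edgeR test was 0.0263, 0.0339 and 0.0357 without WT replicates 1, 2 and 3, 0.0466 without *Hmgn2*-/- replicate 2, and 0.00523 without *Hmgn2*-/- replicate 3, where the log2 FC was −0.36. An exon of *Igf2bp3* shares 1529 bases with *Malsu1* on the opposite strand, and since it is not stated whether the counting used the strand, reads of these genes cannot be told apart there. *Malsu1* had 30.1 ± 1.25 CPM in WT mESCs (SD, n = 3), and its log2 FC was 0.15, 0.23 and 0.11 in the 3 knockouts (adjusted *p* = 0.163, 0.205 and 0.337, edgeR's quasi-likelihood test).

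**Figure D3:**
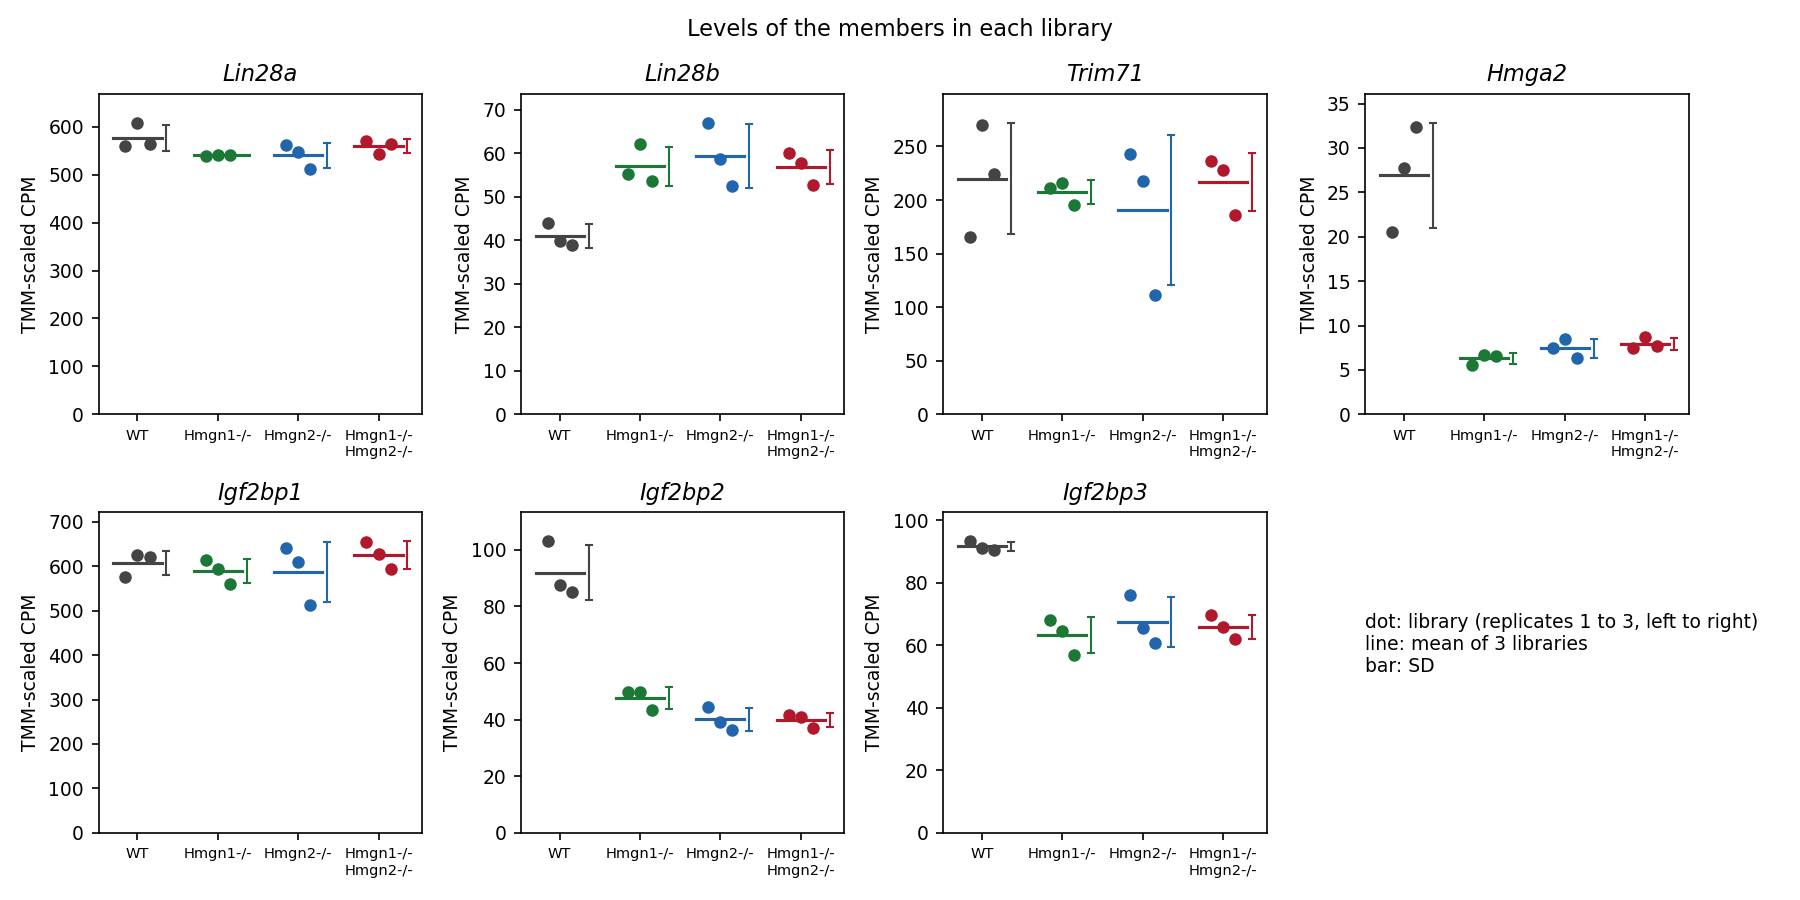
TMM-scaled CPM of the 7 members in each of the 12 libraries; dots are libraries, lines are means of 3 and bars are SDs. *Hmga2* and *Igf2bp2* lie lower in all 9 knockout libraries than in any WT library, *Lin28b* lies higher, and 1 library of *Hmgn2*-/- mESCs has the lowest *Trim71* value, 111 CPM.

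The knockouts were next compared with one another, without WT libraries, to ask whether the members separate the genotypes. No member was past the threshold in any of these comparisons by edgeR's quasi-likelihood test, and none by DESeq2. In *Hmgn2*-/- against *Hmgn1*-/- mESCs 0 of 7 members were DEGs, against 0.176% of 13648 genes, and 1 member, *Igf2bp2*, had an unadjusted *p* under 0.05. In double-knockout against *Hmgn1*-/- mESCs 0 of 7 were DEGs, against 0.511% of 13710 genes, and 2 members, *Hmga2* and *Igf2bp2*, had an unadjusted *p* under 0.05. In double-knockout against *Hmgn2*-/- mESCs 0 of 7 were DEGs, against 0.0434% of 13816 genes, and 0 members had an unadjusted *p* under 0.05. The last share rests on 6 genes, and that number was 12 without *Hmgn2*-/- replicate 1, 1 without *Hmgn2*-/- replicate 2, 3 without double-knockout replicate 1 and 1 without double-knockout replicate 2 or 3. At these background shares a count of 0 among 7 genes carries little information. *Hmga2* had a log2 FC of 0.33 in double-knockout against *Hmgn1*-/- mESCs (SE 0.128, adjusted *p* = 0.356, edgeR's quasi-likelihood test) and 0.08 against *Hmgn2*-/- mESCs (SE 0.139). *Igf2bp2* had a log2 FC of −0.26 in double-knockout against *Hmgn1*-/- mESCs (SE 0.0778, adjusted *p* = 0.17, edgeR's quasi-likelihood test) and −0.01 against *Hmgn2*-/- mESCs (SE 0.0952). The first of these was lower in 3 of 3 libraries than in every *Hmgn1*-/- library, and with replicate number as a block it was −0.25 with an adjusted *p* of 0.00463 by the same edgeR test, in a range of 0.00463 to 0.514 over all alternatives, and inside the fold limit in each. In *Hmgn2*-/- against *Hmgn1*-/- mESCs the log2 FC was 0.25 for *Hmga2* (SE 0.15) and −0.24 for *Igf2bp2* (SE 0.0995). Leaving out *Hmgn2*-/- replicate 3, these were 0.35 and −0.18.

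The 4 genotypes also allow the double knockout to be compared with the sum of the single knockouts. If effects added on the log2 scale, the log2 FC of the double knockout would equal the sum of those of the single knockouts, and the departure from additivity is the difference between them, here fitted over all 12 libraries. *Hmga2* departed by 2.17 (SE 0.229, adjusted *p* = 1.99e-05, edgeR's quasi-likelihood test): its level in the double knockout was about that of either single knockout, not lower by both decreases. It was the only member past the threshold, 1 of 7 against 3.48% of 14323 genes, and 427 of the 499 genes past the threshold departed in the same direction. *Igf2bp2* departed by 0.94 (SE 0.134, adjusted *p* = 0.000283, edgeR's quasi-likelihood test), past the adjusted *p* limit only, and without *Hmgn2*-/- replicate 1 by 1.02 (adjusted *p* = 0.000115, same test), past both limits. Without the fold limit, 2 members were past an adjusted *p* of 0.01, against 6.32% of genes, and with DESeq2, with no filter beyond 1 count or with replicate number as a block 4 members were. *Lin28b* departed by −0.54 (SE 0.132, adjusted *p* = 0.0126) and *Igf2bp3* by 0.50 (SE 0.123, adjusted *p* = 0.0136, edgeR's quasi-likelihood test for both). For *Lin28b* the adjusted *p* of the same edgeR test was 0.00924 without WT replicate 1 and 0.0019 without *Hmgn2*-/- replicate 3, and for *Igf2bp3* it was 0.00237 without *Hmgn2*-/- replicate 1. With DESeq2 it was 0.00194 for *Lin28b* and 0.00306 for *Igf2bp3*, with edgeR and no filter beyond 1 count 0.00627 and 0.00932, and with the block in edgeR 0.00128 and 0.000713. Over all alternatives the adjusted *p* of these edgeR and DESeq2 fits was 0.00128 to 0.0418 for *Lin28b* and 0.000713 to 0.0399 for *Igf2bp3*. *Lin28a*, *Igf2bp1* and *Trim71* departed by 0.14, 0.13 and 0.26, with adjusted *p* of 0.279, 0.491 and 0.651 by edgeR's quasi-likelihood test. Without *Hmgn2*-/- replicate 3 the departure was 2.08 for *Hmga2* (adjusted *p* = 1.68e-05) and 0.88 for *Igf2bp2* (adjusted *p* = 0.000242, edgeR's quasi-likelihood test for both). Because the double knockout was derived from the *Hmgn2*-/- line, it shares the history of that clone as well as its mutation. *Hmgn1* RNA was also lower in the double knockout than in *Hmgn1*-/- mESCs, so these lines did not share 1 level of it.

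Since LIN28 acts on let-7 and let-7 on the members, the genes that make, mature and degrade the microRNA were examined as a list. Of 24 such genes, which include the processing enzymes *Drosha* and *Dicer1*, the Argonaute genes and the uridyl transferases recruited by LIN28, 24 were tested and 0 were past the threshold in each knockout by edgeR's quasi-likelihood test, and 0 by DESeq2. An unadjusted *p* under 0.05 was found for 4 of them in *Hmgn1*-/-, 2 in *Hmgn2*-/- and 8 in double-knockout mESCs. Over all genes tested it was found for 5382 of 13917, 4358 of 14047 and 5499 of 14128. Of all genes tested, 5.98%, 5.15% and 6.3% were past the threshold. By the same edgeR test, 17.3%, 9.97% and 18% had an adjusted *p* under 0.01 when no fold limit was set. Without the fold limit, 0 of the 24 were higher and 0 lower at an adjusted *p* under 0.01 by edgeR's quasi-likelihood test in *Hmgn1*-/- mESCs, 0 and 1 in *Hmgn2*-/- mESCs and 2 and 1 in double-knockout mESCs. The lower gene was *Tnrc6c*, which encodes a partner of the Argonaute proteins, with a log2 FC of 0.08, −0.82 and −0.80 in the 3 knockouts (adjusted *p* = 0.404, 0.000502 and 2.24e-06, same edgeR test). The higher genes were *Eif2c2*, the gene of Argonaute 2, with a log2 FC of 0.45 in double-knockout mESCs (adjusted *p* = 0.00264), and *Syncrip* with 0.22 (adjusted *p* = 0.00806, edgeR's quasi-likelihood test for both). The median log2 FC of the list was 0.05 in *Hmgn1*-/-, 0.05 in *Hmgn2*-/- and 0.04 in double-knockout mESCs, where the median over all genes tested was 0.00401, 0.0133 and 0.0037. *Ddx5*, a helicase of the nuclear processing complex, was the most abundant of them, with 860 CPM over the 12 libraries. The let-7 and miR-125 loci themselves gave next to no counts: of 20 such loci and host genes in the table, 16 had 3 counts or fewer in every library and 10 had 0 counts in all 12. Only 2 were tested in *Hmgn1*-/- and double-knockout mESCs and 1 in *Hmgn2*-/- mESCs, with 0 past the threshold by edgeR or DESeq2 and 0 with an unadjusted *p* under 0.05. The most abundant was *Huwe1*, the host gene of miR-98 and let-7f-2 and a large ubiquitin ligase gene in its own right, with 612 CPM.

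Other known targets of let-7 were examined beside the members. Of 27 listed, 26 had an annotated 3′ UTR, and 20 of these had the letters CTACCTC in it. Counts were given for 26, and 24 were tested in each comparison. In *Hmgn1*-/- mESCs 2 of the 24 were DEGs, in *Hmgn2*-/- mESCs 2 and in double-knockout mESCs 1, all of them decreased, where 5.98%, 5.15% and 6.3% of all genes tested were DEGs by edgeR's quasi-likelihood test. *Ccnd2*, which encodes cyclin D2, fell in all 3 knockouts, from 44.2 ± 4.53 CPM in WT mESCs to 16.5 ± 1.23, 13.4 ± 1.45 and 13.2 ± 1.1 (SD, n = 3 each). Its log2 FC was −1.42, −1.71 and −1.74 (adjusted *p* = 1.88e-07, 5.73e-06 and 2.72e-08, edgeR's quasi-likelihood test). *Irs2*, which encodes an adaptor of the insulin receptor, fell by 1.16 on the log2 scale in *Hmgn1*-/- mESCs and fell by 1.104 in *Hmgn2*-/- mESCs, and had a log2 FC of −0.94 in double-knockout mESCs. The median log2 FC of the list was −0.06, 0.00 and 0.03 in the 3 knockouts, close to the medians of all genes. *Cdc34*, the most abundant with 379 CPM, had a log2 FC of −0.04, 0.07 and 0.00. Without the fold limit, 3 of the 24 were higher and 3 lower at an adjusted *p* under 0.01 by edgeR's quasi-likelihood test in *Hmgn1*-/- mESCs, 1 and 2 in *Hmgn2*-/- mESCs and 3 and 3 in double-knockout mESCs, while 17.3%, 9.97% and 18% of all genes were past that limit. *E2f2*, a cell cycle transcription factor gene, was on the higher side in each, with a log2 FC of 0.82, 0.71 and 0.80 (adjusted *p* = 9.26e-06, 0.000745 and 1.93e-05, same edgeR test). *Myc* and *Insr* were the other higher genes, in *Hmgn1*-/- and double-knockout mESCs.

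The IGF2BP proteins take their name from *Igf2* mRNA, so the insulin-like growth factor axis was examined next to them. Of 15 listed genes 13 were tested, and 6 fell in *Hmgn1*-/-, 5 in *Hmgn2*-/- and 5 in double-knockout mESCs by edgeR's quasi-likelihood test, where 5.98%, 5.15% and 6.3% of all genes tested were DEGs. DESeq2 called 6, 5 and 5 of them. Without the fold limit, 1 was higher and 7 lower at an adjusted *p* under 0.01 by the same edgeR test in *Hmgn1*-/-, 0 and 5 in *Hmgn2*-/- and 1 and 7 in double-knockout mESCs. Over all genes tested, 17.3%, 9.97% and 18% were past that limit. The list shares *Irs2*, *Igf1r* and *Insr* with that of the let-7 targets. *Igf2*, the growth factor itself, had 72.4 ± 14.7 CPM in WT mESCs and 10.6 ± 0.210, 18.2 ± 3.07 and 14.0 ± 1.28 in *Hmgn1*-/-, *Hmgn2*-/- and double-knockout mESCs (SD, n = 3 each). Its log2 FC was −2.78, −1.98 and −2.37 (adjusted *p* = 6.61e-09, 1.63e-05 and 1.77e-08, edgeR's quasi-likelihood test). *H19*, the imprinted neighbour of *Igf2*, had 77 to 153 counts per WT library, 8 to 15 in *Hmgn1*-/-, 2 to 4 in *Hmgn2*-/- and 1 to 5 in double-knockout mESCs, and fell in all 3 knockouts by the same test. With counts this low the size of the fold is poorly set, and only the levels are given, 4.58 ± 0.653 CPM in WT mESCs and 0.463 ± 0.221, 0.116 ± 0.0374 and 0.104 ± 0.0798 in the knockouts (SD, n = 3 each).

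Among the binding proteins of the growth factors, 3 genes were DEGs in at least 1 knockout, which like *Igf2bp2* had lower levels there. *Igfbp3*, which encodes a carrier of insulin-like growth factors in serum, had 47.7 ± 10.6 CPM in WT mESCs and 15.9 ± 0.808, 18.5 ± 0.802 and 16.8 ± 0.123 in the knockouts (SD, n = 3 each). Its log2 FC was −1.58, −1.35 and −1.5 (adjusted *p* = 1.82e-06, 0.000121 and 2.01e-06, edgeR's quasi-likelihood test). *Igfbp5*, at 25 to 48 counts per WT library, fell in all 3 knockouts, with a log2 FC of −1.92, −1.86 and −1.82. *Igfbp7*, at 23 to 60 counts per WT library, fell by 1.33 in *Hmgn1*-/- mESCs and fell by 1.37 in double-knockout mESCs, and had a log2 FC of −1.29 in *Hmgn2*-/- mESCs (adjusted *p* = 0.0133, edgeR's quasi-likelihood test). *Igfbp2*, the most abundant gene of the list, had 300 ± 77.1 CPM in WT mESCs (SD, n = 3) and a log2 FC of −0.57, −0.52 and −0.67, inside the fold limit. The receptors did not pass the threshold: *Igf1r* had a log2 FC of 0.11, 0.07 and 0.06 and *Igf2r* of −0.14, −0.12 and −0.07. *Insr*, the insulin receptor gene, had a log2 FC of 0.52, 0.41 and 0.50 (adjusted *p* = 0.00506, 0.121 and 0.0078, edgeR's quasi-likelihood test), past the adjusted *p* limit in the first and the last. The median log2 FC of the list was −0.87, −0.68 and −0.94 in the 3 knockouts. Its summed level was 581 ± 54.9 CPM in WT mESCs and 370 ± 38.8, 384 ± 22.2 and 364 ± 25.4 in the knockouts (SD, n = 3 each). As with *Hmga2*, the decreases of *Igf2*, *Igfbp3* and *Irs2* did not add up in the double knockout, with departures from additivity of 2.39, 1.44 and 1.33 (adjusted *p* = 2.76e-06, 0.000103 and 0.000532, edgeR's quasi-likelihood test).

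**Figure D4:**
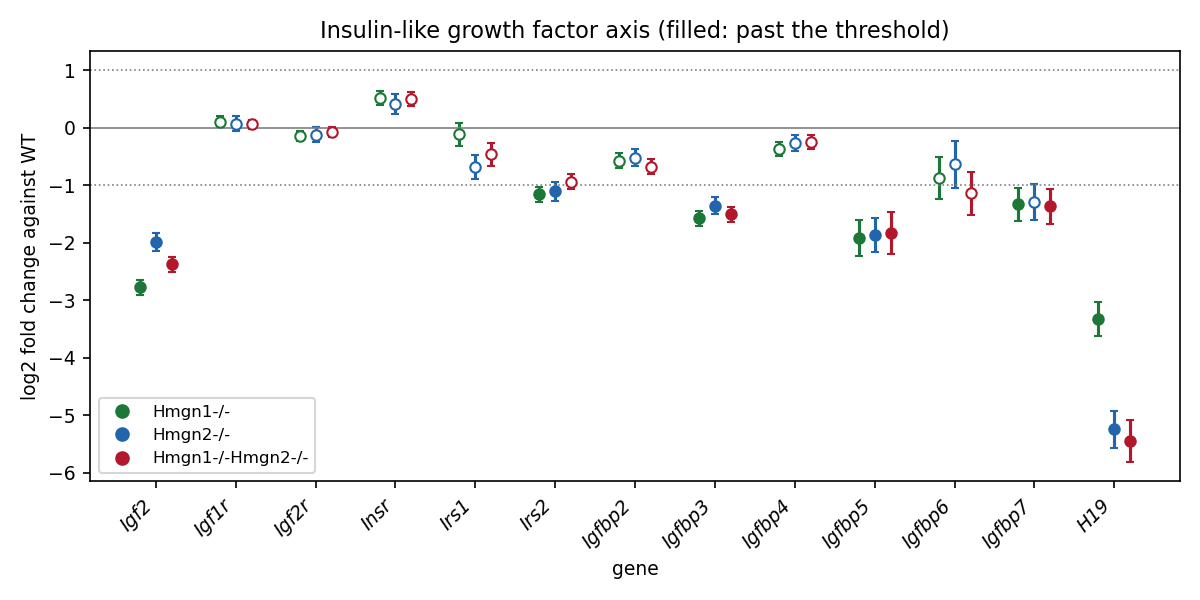
Log2 FC against WT mESCs of the 13 tested genes of the insulin-like growth factor axis in the 3 knockouts, with standard errors; filled points are past the threshold and dotted lines mark the fold limit. *Igf2* lies at −2.78, −1.98 and −2.37, while the receptor genes *Igf1r* and *Igf2r* lie near 0 and *Insr* lies at 0.52, 0.41 and 0.50.

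The proteins that share ribonucleoprotein particles with LIN28 and the IGF2BPs gave no DEGs. Over all genes tested, 5.98%, 5.15% and 6.3% were DEGs in the 3 knockouts. All 13 listed partner genes were tested, and 0 were past the threshold in each knockout by edgeR's quasi-likelihood test and 0 by DESeq2. An unadjusted *p* under 0.05 was found for 6 of them in *Hmgn1*-/-, 4 in *Hmgn2*-/- and 7 in double-knockout mESCs, where 5382 of 13917, 4358 of 14047 and 5499 of 14128 genes had one, and the median log2 FC was 0.06, 0.04 and 0.07. An adjusted *p* under 0.01 by edgeR's quasi-likelihood test, without the fold limit, was found for 17.3%, 9.97% and 18% of all genes tested. At that limit 2 partner genes were higher and 1 lower in *Hmgn1*-/-, 0 and 0 in *Hmgn2*-/- and 3 and 0 in double-knockout mESCs. *Msi1* was the furthest of these, at 0.82 in *Hmgn1*-/- and 0.68 in double-knockout mESCs. The most abundant was *Pabpc1*, the poly-A binding protein gene, with 2329 CPM over the 12 libraries and a log2 FC of −0.25, −0.22 and −0.18. Among other genes of the HMG families, 8 were tested and only the edited genes *Hmgn1* and *Hmgn2* were DEGs, with a median log2 FC of −0.23, −0.14 and −0.29 over the list. *Hmga1*, the close relative of *Hmga2*, had 4.77 ± 1.28 CPM in WT mESCs (SD, n = 3) and a log2 FC of −0.25, −0.17 and −0.20 (adjusted *p* = 0.414, 0.637 and 0.491, edgeR's quasi-likelihood test). *Hmgb2*, the most abundant of these genes, with 1023 CPM over the 12 libraries, had a log2 FC of 0.38, 0.42 and 0.37, inside the fold limit (adjusted *p* = 0.0003, 0.0105 and 0.000563, edgeR's quasi-likelihood test). At an adjusted *p* under 0.01 by the same edgeR test and with no fold limit, 1 of the 8, *Hmgb2*, was higher and 2 were lower in *Hmgn1*-/-, 0 and 1 in *Hmgn2*-/- and 1 and 2 in double-knockout mESCs. The lower genes were the edited ones and, in *Hmgn1*-/- mESCs, *Hmgn5* at −0.51 (adjusted *p* = 0.00963, edgeR's quasi-likelihood test).

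Cell type markers were measured beside the members because *Hmga2*, *Igf2bp2* and *Igf2bp3* are active in several early lineages. The shares of all genes that were DEGs, to be read beside each list, were 5.98%, 5.15% and 6.3% in the 3 knockouts. The shares with an adjusted *p* under 0.01 by edgeR's quasi-likelihood test and no fold limit were 17.3%, 9.97% and 18%. An unadjusted *p* under 0.05 was found for 5382 of 13917, 4358 of 14047 and 5499 of 14128 genes. The 10 markers of mESCs, led by *Pou5f1* with 1891 CPM over the 12 libraries, gave 0 DEGs in each knockout by edgeR's quasi-likelihood test and 0 by DESeq2, with an unadjusted *p* under 0.05 for 5, 4 and 5 of them. Without the fold limit, 2, 1 and 2 of them were higher and 1 was lower in each knockout at an adjusted *p* under 0.01 by the same edgeR test. *Klf4* was on the higher side, with a log2 FC of 0.93, 0.69 and 0.74 (adjusted *p* = 1.94e-06, 0.000899 and 5.7e-06, edgeR's quasi-likelihood test). *Esrrb* had a log2 FC of 0.47, 0.32 and 0.28 (adjusted *p* = 2.81e-05, 0.0124 and 0.00251), and *Nanog* was on the lower side with −0.32, −0.5 and −0.45 (adjusted *p* = 0.0014, 0.00152 and 0.000195, edgeR's quasi-likelihood test for both). Their median log2 FC was 0.06, −0.02 and −0.08. Their summed level was 6613 ± 82.7 CPM in WT mESCs and 6701 ± 225, 6604 ± 568 and 6427 ± 352 in *Hmgn1*-/-, *Hmgn2*-/- and double-knockout mESCs (SD, n = 3 each).

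Markers of formative and primed epiblast, the state that follows the naive one, were lower in part. Of 10 markers 4 fell in *Hmgn1*-/-, 4 in *Hmgn2*-/- and 5 in double-knockout mESCs: *Fgf5*, *Pou3f1*, *Wnt8a* and *T*, and in the last also *Zic2*. *Etv4* was on the other side, with a log2 FC of 0.57, 0.59 and 0.63, past the adjusted *p* limit and not the fold limit (adjusted *p* = 0.000123, 0.00343 and 6.91e-05, edgeR's quasi-likelihood test). The median log2 FC of the list was −0.8, −0.97 and −0.97. *Pou3f1* had 98.6 ± 3.44 CPM in WT mESCs and 38.9 ± 2.41, 34.2 ± 2.53 and 35.8 ± 1.90 in the knockouts (SD, n = 3 each). The most abundant of them, *Dnmt3b* with 526 CPM over the 12 libraries, had a log2 FC of 0.06, −0.01 and −0.14, and the summed level, which it dominates, was 995 CPM in WT mESCs and 1012, 982 and 951 in the knockouts. None of the markers was at 0 in any library.

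Fibroblast markers, measured because fibroblasts serve as feeder cells for mESCs, were tested in part. Of 16 markers 10 were tested in each single knockout and 11 in the double knockout. *Col1a1*, *Col1a2*, *Col5a1*, *Thy1* and *Acta2* fell in all 3, *Col6a1* in *Hmgn1*-/- and double-knockout mESCs and *Twist2* in double-knockout mESCs, where alone it was tested. This made 6, 5 and 7 DEGs by edgeR's quasi-likelihood test and 6, 5 and 6 by DESeq2, with a median edgeR log2 FC of −1.63, −1.51 and −1.4 for the list. *Col6a1* had a log2 FC of −2.04 in *Hmgn2*-/- mESCs, past the fold limit and not the adjusted *p* limit (adjusted *p* = 0.0128, edgeR's quasi-likelihood test). *Fbn1* had a log2 FC of 0.13, 0.32 and 0.38 and *Fn1* of 0.59, 0.28 and 0.22, all inside the fold limit, with *Fn1* past the adjusted *p* limit in *Hmgn1*-/- mESCs (adjusted *p* = 0.000607, edgeR's quasi-likelihood test). *Dcn*, *Lum* and *Prrx1*, which define fibroblasts, had 3 counts or fewer in every library, and *Lum* had 0 in all. The summed level was 445 ± 16.1 CPM in WT mESCs and 594 ± 105, 482 ± 122 and 466 ± 53.2 in the knockouts (SD, n = 3 each), most of it from *Fn1*, a gene that mESCs also express, with 461 CPM over the 12 libraries. Without *Fn1*, which was left out after its values were seen, it was 65.0 ± 5.80 CPM in WT mESCs and 24.2 ± 0.609, 25.8 ± 2.81 and 26.7 ± 2.37 in the knockouts (SD, n = 3 each). By library it was 63.8, 59.8 and 71.2 CPM in WT mESCs, where *Hmga2* had 20.6, 27.7 and 32.4, while it was 23.8, 24.9 and 23.9 in *Hmgn1*-/- mESCs. It was 28.9, 25.3 and 23.3 CPM in *Hmgn2*-/- mESCs and 25.2, 29.5 and 25.6 in double-knockout mESCs.

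Of 10 trophoblast markers 9 were tested, and 6 fell in each knockout: *Gata3*, *Krt7*, *Krt8*, *Krt18*, *Hand1* and *Ascl2*. The other 3 were past the threshold in no knockout: *Cdx2* had a log2 FC of −0.52, 0.03 and 0.01, *Tfap2c* of 0.02, 0.12 and −0.23 and *Eomes* of −0.65, −0.46 and −0.69. Of these, *Eomes* had an adjusted *p* under 0.01 in *Hmgn1*-/- and double-knockout mESCs, 0.00241 and 0.00105 by edgeR's quasi-likelihood test. The median log2 FC of the list was −2.51, −1.93 and −2.11. Their summed level was 433 ± 100 CPM in WT mESCs and 95.6 ± 16.8, 134 ± 22.7 and 113 ± 13.1 in the knockouts (SD, n = 3 each), led by *Krt8* with 86.5 CPM over the 12 libraries. By library it was 352, 403 and 545 CPM in WT mESCs and 87.6, 84.3 and 115 in *Hmgn1*-/- mESCs. It was 119, 122 and 160 CPM in *Hmgn2*-/- mESCs and 99.3, 113 and 126 in double-knockout mESCs. Primitive endoderm markers went the other way: of 10 markers 7 rose in *Hmgn1*-/-, 8 in *Hmgn2*-/- and 10 in double-knockout mESCs, with a median log2 FC of 2.5, 2.82 and 3.84. Their summed level was 173 ± 24.8 CPM in WT mESCs and 425 ± 47.5, 471 ± 102 and 1013 ± 50.4 in the knockouts (SD, n = 3 each), led by the laminin gene *Lama1* with 198 CPM over the 12 libraries. By library it was 144, 186 and 189 CPM in WT mESCs and 480, 393 and 402 in *Hmgn1*-/- mESCs. It was 556, 500.2 and 358 CPM in *Hmgn2*-/- mESCs and 1050.0, 1033 and 956 in double-knockout mESCs. Markers of 2-cell-like cells, several of which have near-identical copies and are therefore uncertain, fell in 6 of 6, 7 of 7 and 6 of 7 cases, from a summed level of 22.5 ± 4.54 CPM in WT mESCs to 1.53 ± 0.566, 1.48 ± 0.473 and 6.96 ± 1.42 (SD, n = 3 each), led by *Zscan4c* with 2.48 CPM over the 12 libraries. The summed markers of trophoblast were lower in every knockout library than in every WT library, as *Hmga2* was. Those of fibroblasts were so only without *Fn1*: with it, every *Hmgn1*-/- library lay above every WT library, and the libraries of the other knockouts lay on both sides of those of WT mESCs. Those of primitive endoderm were higher in every knockout library than in every WT library, as *Lin28b* was. The part of these markers in the values of *Hmga2*, *Igf2bp2*, *Igf2bp3* and *Lin28b* was not tested.

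**Figure D5:**
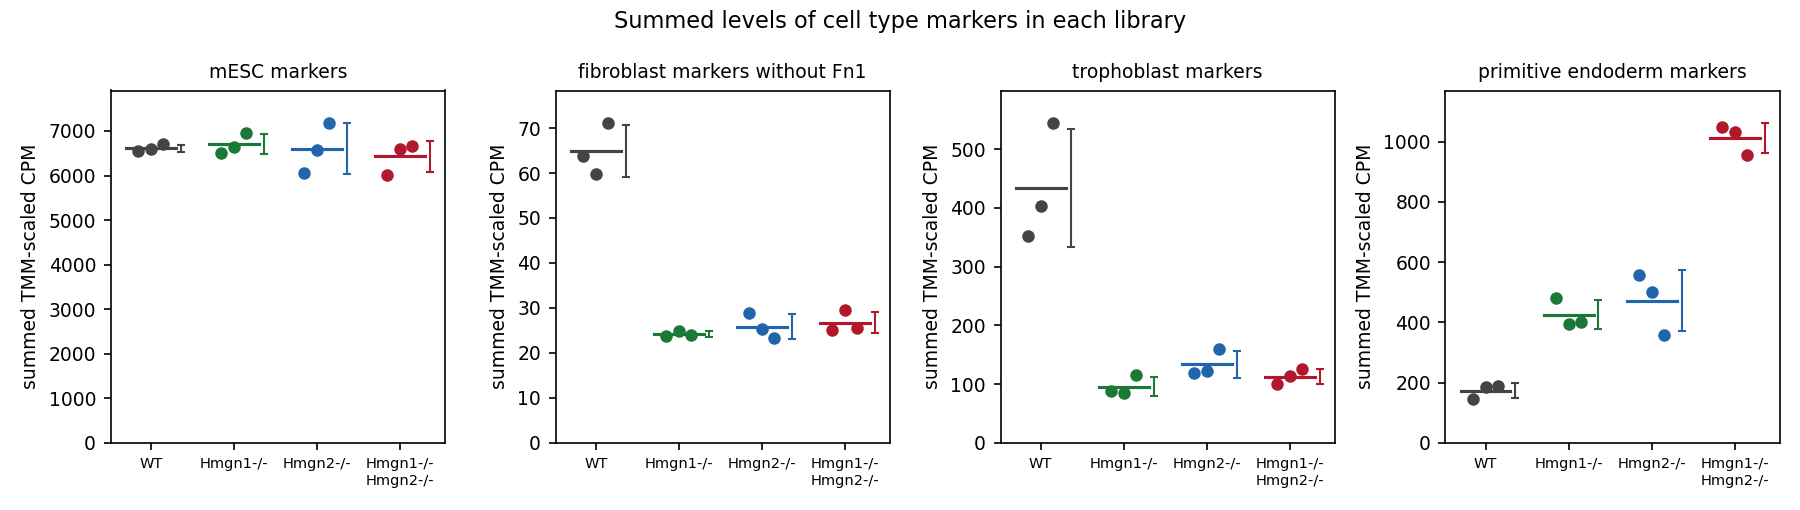
Summed TMM-scaled CPM of 4 marker lists in each library; dots are libraries, lines means of 3 and bars SDs. The mESC markers lie near 6613 CPM in WT mESCs and at like levels in the knockouts, fibroblast markers without *Fn1* (with it, 445 CPM in WT mESCs and 594, 482 and 466 in the knockouts) and trophoblast markers are lower in every knockout library, and primitive endoderm markers are higher, most of all in the double knockout.

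For each member the 3 genes with the most similar pattern over the 12 libraries were found among 12557 genes with a mean of at least 1 CPM. The measure was Pearson's *r* of log2 CPM, given as a description: the 12 points share genotype and library, so *r* after subtracting each group's mean is set beside it. The genes most like *Hmga2* were *Flnc* (*r* = 0.99, and 0.832 within groups), *Igfbp3* (0.986 and 0.861) and *Col5a1* (0.985 and 0.841). *Flnc*, a muscle-type filamin gene, had 75.1 ± 13.4 CPM in WT mESCs and 25.7 ± 0.572, 27.2 ± 2.96 and 28.0 ± 0.871 in the knockouts (SD, n = 3 each). The genes most like *Igf2bp2* were *Fig4* (0.989 and 0.818), *Plac8* (0.981 and 0.616) and *Pou3f1* (0.979 and 0.561), and those most like *Igf2bp3* were *Lrig3* (0.975 and 0.922), *Notch3* (0.964 and 0.889) and *Rtn4* (0.961 and 0.881). *Lin28b* was most like *Abcc4* (0.973 and 0.881), *Ide* (0.971 and 0.9) and *Ept1* (0.971 and 0.848).

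The members past neither limit followed in the same way. *Igf2bp1* was most like *Chd8* (*r* = 0.971, and 0.984 within groups), *Helz* (0.97 and 0.969) and *Gtf3c1* (0.97 and 0.986). *Trim71* was most like *Tns3* (0.987 and 0.99), *Nupl1* (0.975 and 0.98) and *Urb1* (0.973 and 0.976). *Lin28a* was most like *Rasa1* (0.918 and 0.867), *Ece1* (0.916 and 0.876) and *Ankfy1* (0.892 and 0.892). *Hmgn2*-/- replicate 3 had the lowest *Igf2bp1*, *Trim71* and *Lin28a* of the 12 libraries and enters these values of *r*, which were not computed without it.

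*Hmga2* and *Igf2bp2* were the members past the threshold against WT in at least 1 knockout, and their promoters are printed for that reason, 250 bases before to 50 after the start of the gene from RefSeq on GRCm38, minus strand. Of the 7 members 6 matched an entry, and *Igf2bp1* is named only. Motifs were searched on both strands: the GC box GGGCGG, the E-box CACGTG, the TATA box TATAAA and the CCAAT box CCAAT, held by 35.7%, 7.15%, 13.6% and 37.4% of 32851 promoters. Motifs found are in capitals.
Hmga2, chr10:120476420-120476719: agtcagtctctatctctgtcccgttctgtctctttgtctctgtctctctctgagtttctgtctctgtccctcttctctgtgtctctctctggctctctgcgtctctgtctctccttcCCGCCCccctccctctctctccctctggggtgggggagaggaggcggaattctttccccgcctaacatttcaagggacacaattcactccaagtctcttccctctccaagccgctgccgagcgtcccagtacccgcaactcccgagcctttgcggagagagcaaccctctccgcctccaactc
Igf2bp2, chr16:22163250-22163549: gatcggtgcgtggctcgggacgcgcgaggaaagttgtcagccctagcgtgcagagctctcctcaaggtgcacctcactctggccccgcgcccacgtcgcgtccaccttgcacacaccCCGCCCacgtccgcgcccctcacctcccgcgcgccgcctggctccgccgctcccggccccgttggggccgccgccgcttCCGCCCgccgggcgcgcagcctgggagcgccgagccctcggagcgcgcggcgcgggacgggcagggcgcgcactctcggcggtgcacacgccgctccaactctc
The *Hmga2* window held 1 GC box and none of the other motifs, with 12 CpG and 57.7% GC. The *Igf2bp2* window held 2 GC boxes, 47 CpG and 76.7% GC, and as many CpG were found in 1.44% of promoters, where the median was 7 CpG and 52.7% GC. The windows thus had the GC box in common, which more than 1 promoter in 3 holds, and differed in CpG content. These counts describe the letters of the windows, and no binding or chromatin mark at them was measured here.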

How the data were processed

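Poly-A RNA of 4 genotypes of v6.5 mESCs was sequenced in 12 libraries, 3 per genotype. The counts are whole numbers for each of 23412 genes as deposited, and the authors had aligned the reads to mm10 with STAR; the counting program, its annotation, the strand and any removal of duplicates are not stated. Genes were tested with edgeR 4.0.16 in R 4.3.3, with TMM factors, filterByExpr, the quasi-likelihood test and Benjamini-Hochberg adjustment, on the 6 libraries of each pair of groups; the departure from additivity used all 12. The threshold was an adjusted p under 0.01 and a log2 FC of at least 1 in size. Each SE of a log2 FC was derived from the test, as its size over the square root of the F statistic. The procedure was tested on simulated data. DESeq2 1.42.0, other scaling, filters and limits, a replicate block and leaving out each library were tried. Sequences came from GRCm38 annotation. Members and lists were chosen with earlier results of these data known. Genes named are the members, *Hmgn1*, *Hmgn2*, list genes past the threshold against WT, each list's most abundant gene and the 3 genes most like each member; other genes were chosen after their values were seen. Libraries held 17337908 to 31448468 counts, and SDs and SEs cover only the spread between the libraries of these lines.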

Additional observations from a re-analysis of the deposited data

Results flagged for a closer look

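*Hmga2* departed from additivity by 2.17 on the log2 scale (SE 0.229, adjusted *p* = 1.99e-05, edgeR's quasi-likelihood test). Its difference between lines with and without the *Hmgn1* edit was not the same with *Hmgn2* edited as with *Hmgn2* intact. Its level was lower in 9 of 9 knockout libraries than in every WT library, at 26.9 ± 5.95 CPM in WT mESCs, 6.30 ± 0.604 in *Hmgn1*-/-, 7.42 ± 1.11 in *Hmgn2*-/- and 7.92 ± 0.666 in double-knockout mESCs (SD, n = 3 each). Without *Hmgn2*-/- replicate 3 the departure was 2.08. *Hmgn1* RNA was itself lower in double-knockout than in *Hmgn1*-/- mESCs, with a log2 FC of −2.73 (adjusted *p* = 7.83e-13, edgeR's quasi-likelihood test). The *Hmgn1* edits thus did not leave the same RNA level in both backgrounds, and the cause was not tested. Genotype and clone cannot be told apart.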

How the results depend on the processing

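Of 672 values of members under the alternatives, 637 kept their direction and their side of the threshold, 0 no longer passed it, 2 came to pass it and 33 had the opposite sign, none of these larger than 0.155 in size. The 672 include the values at an adjusted *p* under 0.05, which come from the main fit and could neither change sign nor drop out. *Hmga2* stayed past the threshold in each knockout against WT and in the departure from additivity under every alternative, and *Igf2bp2* did in *Hmgn2*-/- and double-knockout mESCs against WT. On leaving out each library, the log2 FC of *Hmga2* was −2.27 to −1.93, −2.004 to −1.68 and −1.94 to −1.60 in *Hmgn1*-/-, *Hmgn2*-/- and double-knockout mESCs, and its departure 2.01 to 2.34.

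With 1 library left out, 1 to 2 members were past the threshold in *Hmgn1*-/- mESCs against WT, the 2 without WT replicate 3, and 1 to 2 in the departure from additivity, the 2 without *Hmgn2*-/- replicate 1; *Igf2bp2* was the added member in both cases.

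In double-knockout against *Hmgn2*-/- mESCs, 6 genes were past the threshold. There were 29 with DESeq2, 21 with no filter beyond 1 count, 24 at an adjusted *p* under 0.05, 18 with all 12 libraries in 1 fit and 1 to 12 on leaving out each library. The departure from additivity gave 798 genes at an adjusted *p* under 0.05 against 499. The looser limit accounts for the counts at 0.05; for the other alternatives the cause was not tested.

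After group means were subtracted, libraries with the same replicate number had r of 0.0169 to 0.301, over 0.1 in 11 of 18 pairs, against −0.266 to 0.0623 for other pairs, and 12 of 12 libraries were most alike with their own number. This is a hint of pairing from the data, not from the design, and the comparisons were left without a block. With replicate number as a block, a form of pairing, 32 genes were past the threshold in double-knockout against *Hmgn2*-/- mESCs, *Trim71* had a log2 FC of 0.003522 in double-knockout mESCs against WT, and *Lin28a* −0.0004272 in *Hmgn2*-/- against *Hmgn1*-/- mESCs. The block moved no member across the whole threshold, but adjusted *p* with it was below 0.01 for 3 results that were not below it without: *Igf2bp2* in double-knockout against *Hmgn1*-/- mESCs, at 0.00463, and the departure from additivity of *Lin28b*, at 0.00128, and *Igf2bp3*, at 0.000713 (edgeR's quasi-likelihood test). *Lin28a* in *Hmgn2*-/- against *Hmgn1*-/- mESCs, at 0.0005948 with the main choices, was −0.001254 with DESeq2, −0.0004201 with RLE scaling, −0.00341 with no filter beyond 1 count and −0.001213 with all 12 libraries in 1 fit. The cause was not tested, and all these values are far inside the fold limit.

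The remaining changes of sign came from leaving out single libraries, and the values that follow are the lowest and highest log2 FC. For *Trim71* they were −0.2494 and 0.09309 in *Hmgn1*-/-, −0.4063 and 0.07897 in *Hmgn2*-/- and −0.1865 and 0.1547 in double-knockout mESCs against WT. *Igf2bp1* in *Hmgn2*-/- mESCs against WT was −0.1078 to 0.05263. In *Hmgn2*-/- against *Hmgn1*-/- mESCs, *Lin28a* was −0.02851 to 0.03764, *Lin28b* −0.03289 to 0.1415, *Igf2bp1* −0.06906 to 0.08775 and *Trim71* −0.329 to 0.1506. In double-knockout against *Hmgn1*-/- mESCs, *Lin28b* was −0.04616 to 0.05973, *Igf2bp3* −0.01287 to 0.1119 and *Trim71* −0.004826 to 0.1625. In double-knockout against *Hmgn2*-/- mESCs, *Hmga2* was −0.01732 to 0.1898, *Lin28b* −0.1464 to 0.03014, *Igf2bp1* −0.001737 to 0.1576, *Igf2bp2* −0.07395 to 0.0713, *Igf2bp3* −0.1085 to 0.05827 and *Trim71* −0.09007 to 0.3923. The departure from additivity of *Trim71* was −0.009687 to 0.4707. None of these was past the threshold, and the cause was not tested. Depth limits the genes of few counts, such as *H19*, more than the members, of which *Hmga2* had the fewest counts, 106 in *Hmgn2*-/- replicate 3.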
